A study of Homo sapiens with 30 samples.

Results

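The genes described here are 10 regulators of the entry into the cell cycle: the D-type cyclins CCND1, CCND2 and CCND3, the E-type cyclins CCNE1 and CCNE2, the cyclin-dependent kinase (CDK) inhibitors CDKN1B, CDKN2A and CDKN2B, and the transcription factors MYC and MYCN. They were taken by symbol from the count table of every library, and all 10 were found among the 28307 genes listed. Total RNA was sequenced from 30 libraries of H9, an established human embryonic stem (hES) cell line, in 10 groups of 3. Primed WT cells, which stand for the post-implantation epiblast, grew on Matrigel, and every other group was naive, that is reset to a state close to the preimplantation epiblast and grown on inactivated mouse fibroblasts. NaiveCult WT and XACT KO cells were reset with the commercial NaiveCult protocol. XACT KO cells came from 3 clones lacking the start region of the long noncoding RNA XACT. The remaining groups were reset and kept in PXGL, a medium with inhibitors of MEK (PD0325901), tankyrase (XAV939) and protein kinase C (Gö6983) plus LIF. They were PXGL WT, XIST KO (1 homozygous clone with the XIST promoter and first exon deleted), CRISPRi UT and CRISPRi Dox, and siScr, siSPEN1 and siSPEN2. CRISPRi UT and CRISPRi Dox cells both carry a doxycycline-inducible dCas9-KRAB repressor, integrated with piggyBac, and a guide to the XIST promoter. Only the Dox group received doxycycline. The paper describes 3 separate CRISPRi clones, and the labels do not give the clone of each library. The siScr, siSPEN1 and siSPEN2 cells were naive H9 cells transfected with a scrambled siRNA, with 1 siRNA against the XIST cofactor SPEN or with a mix of 2 others. Per the study's reporting notes the XIST KO libraries are technical replicates, so their spread is not that between cultures, and no group received doxycycline without the repressor.

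D-type cyclins activate CDK4 and CDK6, and E-type cyclins activate CDK2. Both kinds of complex phosphorylate the retinoblastoma protein, which releases E2F factors and lets cells start DNA synthesis. CDKN2A and CDKN2B encode INK4 proteins that block CDK4 and CDK6. CDKN2A also encodes, from another first exon, the p53-stabilizing protein ARF, and CDKN1B encodes an inhibitor that acts mainly on CDK2 complexes. MYC and MYCN are related E-box factors that drive genes of growth, ribosome assembly and nucleotide synthesis. Pluripotent cells divide fast, with a short gap before DNA synthesis and little INK4 expression.

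Library totals ran from 31190052 to 65637976 counts, and levels are given in CPM, a gene's counts scaled to a common library total. XIST averaged 900 CPM in PXGL WT against 0.333 CPM in XIST KO, and 678 CPM in CRISPRi UT against 6.52, 159 and 170 CPM in the 3 CRISPRi Dox libraries. The mean of SPEN was 163 CPM with siSPEN1 and 157 CPM with siSPEN2 against 330 CPM with the scrambled siRNA, and deletion took XACT from a mean of 1.71 to 0.0669 CPM. Of the marker lists, the summed naive markers lay between 2523 and 3928 CPM in the 27 naive libraries and between 26.2 and 32.0 CPM in the primed ones. KLF17, ARGFX, DNMT3L and TRIM60 of that list had no counts in primed cells, and the primed marker CYTL1 had none in any naive group. Trophoblast markers summed to 344 to 533 CPM in NaiveCult WT and XACT KO against 19.5 to 39.4 CPM in the PXGL groups, and neural markers reached at most 2.37 CPM in any library.

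Promoter windows were taken for the 6 members listed in the RefSeq promoter table (GRCh38.p14), each as the 250 bases before a transcription start. CCND1, CCND2, CCNE2 and MYC are not among them. The windows of the neighbouring INK4 genes on chromosome 9 are shown because both genes changed between the states and with SPEN depletion, while the counts do not separate the 2 starts of CDKN2A. The MYCN window is shown because it was the only one of the 9 member windows with an E2F motif. All 3 INK4 windows are on the minus strand, with CDKN2A annotated at chr9:21967752-21995301 and CDKN2B at chr9:22002903-22009305. In these 3, capitals mark the SP motif GGGCGG on either strand, and in MYCN (plus strand) they mark the E2F motif.
CDKN2A, start of the ARF first exon, chr9:21995325-21995574: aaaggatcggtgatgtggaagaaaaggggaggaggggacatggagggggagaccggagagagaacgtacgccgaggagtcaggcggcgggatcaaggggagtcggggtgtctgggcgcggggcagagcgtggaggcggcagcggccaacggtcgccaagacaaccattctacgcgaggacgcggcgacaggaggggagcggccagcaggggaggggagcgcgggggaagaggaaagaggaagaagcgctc
CDKN2A, start of the INK4 first exon, chr9:21974858-21975107: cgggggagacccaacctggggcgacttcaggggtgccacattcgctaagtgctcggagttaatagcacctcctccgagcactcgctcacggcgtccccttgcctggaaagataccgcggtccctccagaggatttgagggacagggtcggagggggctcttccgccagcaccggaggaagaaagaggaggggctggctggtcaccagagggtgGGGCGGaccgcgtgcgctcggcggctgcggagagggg
CDKN2B, chr9:22009306-22009555: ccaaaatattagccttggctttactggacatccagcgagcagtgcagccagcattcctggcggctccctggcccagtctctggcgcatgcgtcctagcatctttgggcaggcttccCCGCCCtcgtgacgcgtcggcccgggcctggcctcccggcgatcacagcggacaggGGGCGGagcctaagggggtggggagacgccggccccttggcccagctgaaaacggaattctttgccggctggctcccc
MYCN, chr2:15940300-15940549: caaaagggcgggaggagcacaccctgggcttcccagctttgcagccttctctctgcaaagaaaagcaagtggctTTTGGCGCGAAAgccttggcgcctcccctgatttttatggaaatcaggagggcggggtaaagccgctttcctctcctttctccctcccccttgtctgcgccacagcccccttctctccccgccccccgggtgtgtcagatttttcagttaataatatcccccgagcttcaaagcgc
The E2F motif was searched as TTTCGCGC, TTTGGCGC, TTTCCCGC and TTTGCCGC on both strands, and the 2 matches in MYCN overlap each other. It occurred in 2.79% of all 35116 windows of this length in the table, the SP motif in 42.6% and the E-box CACGTG in 6.34%. The ARF window held no SP match, the INK4 window of CDKN2A held 1 and the CDKN2B window 2. CCNE1 held 7 SP matches, the most of the member windows, and no member window held the E-box.

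**Figure D1:**
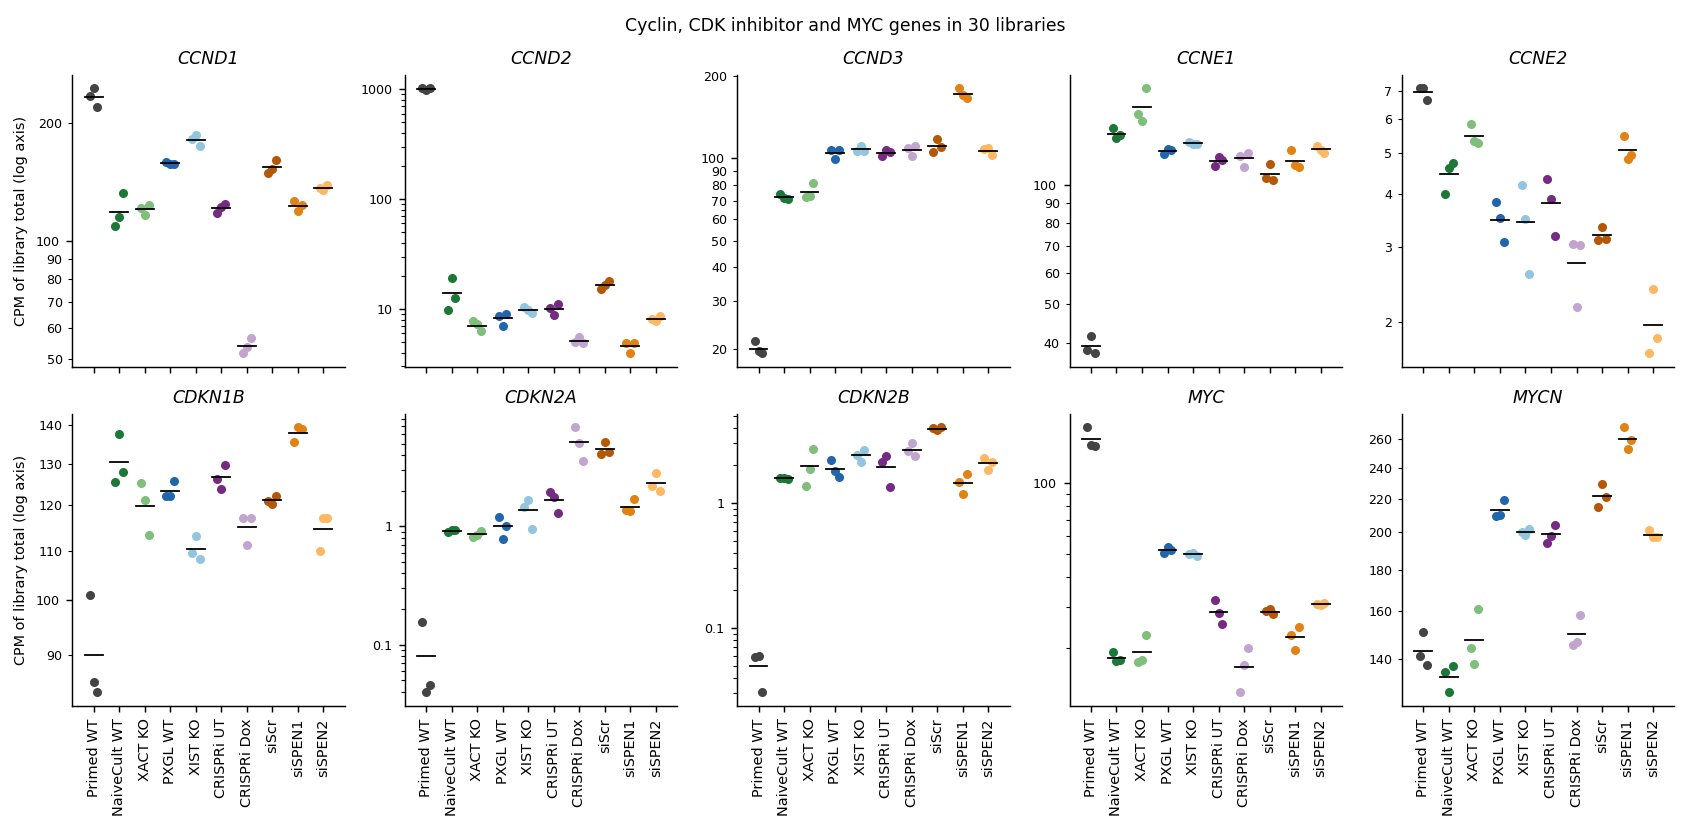
Level of each of the 10 genes in every library, in CPM of the library total on a log axis, with 1 point per library and a line at the mean of each group of 3. CCND2 in Primed WT lies at 983 CPM or more and below 20 CPM in each of the 27 naive libraries, and CDKN2A and CDKN2B lie below 0.2 CPM in Primed WT.

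The members differed widely in how far they moved between groups. CCND2 covered the widest range, 221-fold between the mean of Primed WT and that of siSPEN1, followed by CDKN2B (79.5-fold), CDKN2A (64.1-fold) and MYC (9.24-fold). CCND3 spanned 8.52-fold, CCND1 4.32-fold, CCNE1 4.001-fold and CCNE2 3.54-fold. MYCN spanned 1.96-fold and CDKN1B 1.53-fold, the narrowest range. Compared per kilobase of exon, the most abundant member in primed cells was CCND2 (127 ± 3.15 CPM per kb, SD, n = 3), ahead of MYCN (52.1 ± 2.60) and CCND1 (49.0 ± 2.76). In PXGL WT the order began with MYCN (77.4 ± 2.04), CCNE1 (49.4 ± 0.692) and CCND1 (33.2 ± 0.147), and CCND2 ranked 7 of 10 at 1.03 ± 0.129 CPM per kb. The INK4 genes were the 2 least abundant members in each of these 2 groups, at 0.0208 CPM per kb or less in primed cells. These ranks depend on the exon lengths used. By CPM alone CCND2 (1012) still led in primed cells, but CCND1 (233) and MYC (154) lay above MYCN (143). In PXGL WT MYCN (213) still led, with CCND1 (158) and CDKN1B (123) above CCNE1 (122).

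Ordered by mean CPM, MYC ran from Primed WT through PXGL WT, XIST KO, siSPEN2, siScr, CRISPRi UT, siSPEN1, XACT KO and NaiveCult WT to CRISPRi Dox. Its replicate ranges overlapped between siScr and CRISPRi UT and between all neighbours from siSPEN1 down to CRISPRi Dox. CCND1 ran from Primed WT through XIST KO, PXGL WT, siScr, siSPEN2, siSPEN1, CRISPRi UT, XACT KO and NaiveCult WT to CRISPRi Dox, and the neighbours from siSPEN1 to NaiveCult WT overlapped, as did PXGL WT and siScr. CDKN2A was highest in CRISPRi Dox and siScr, whose ranges overlapped, followed by siSPEN2, by a run of overlapping groups from CRISPRi UT to XACT KO, and by Primed WT. These orders cross 3 series of library numbers (the XIST groups, the siRNA groups, and the primed, NaiveCult and XACT groups), so between series they are a description only. Fewer cells of a type and less RNA per cell cannot be told apart in such bulk libraries.

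The first comparison asks how the genes differ between primed and naive pluripotency. CCND2, the dominant D-type cyclin of primed cells, was 106-fold lower in PXGL WT and 65.7-fold lower in NaiveCult WT, and MYC was also lower, while CCND3, CCNE1 and both INK4 genes were higher. In PXGL WT against Primed WT all 10 members passed the test (adjusted p below 0.05), 6 higher and 4 lower, where 87.5% of the 18663 genes tested passed. Beyond 2-fold, 6 passed, 4 higher and 2 lower, against 54.8% of all genes. In NaiveCult WT against Primed WT 9 passed, 5 higher and 4 lower, where 85.4% of genes passed. Such shares are near the background, so the result lies in the sizes and not in the counts. Both comparisons use the same primed libraries. PXGL WT and the primed cells belong to different series of library numbers, which cannot be told apart from the culture state, whereas NaiveCult WT and Primed WT share one series. Markers of other cell types differed between the states too. The 8 fibroblast markers summed to 764 to 902 CPM in Primed WT, mostly THY1 (751 CPM), against 3.51 to 4.05 CPM in PXGL WT, where 7 were lower, and 16.4 to 28.6 CPM in NaiveCult WT, where 4 were lower and 3 higher. The 7 hypoblast and mesendoderm markers summed to 2.76 to 3.39 CPM in Primed WT against 59.1 to 63.4 CPM in PXGL WT, where 6 were higher, and 44.1 to 46.0 CPM in NaiveCult WT, where 7 were. Trophoblast markers were higher for 6 of 7 in PXGL WT, with 1 lower, and for 7 of 7 in NaiveCult WT. Primed cells grew on Matrigel, and their fibroblast sum rested mostly on 1 gene. Whether such cells were present was not tested, nor was their part in the differences below.

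CCND2 measured 1028, 983 and 1025 CPM in the primed libraries. It measured 8.68, 7.02 and 8.91 CPM in PXGL WT and 9.78, 19.2 and 12.5 CPM in NaiveCult WT. The ranges did not come near each other, and the log2 fold change was -6.73 ± 0.187 (SE, adjusted p = 2.8e-13) in PXGL WT and -6.04 ± 0.181 in NaiveCult WT. Over the 9 naive groups the mean CCND2 level was 0.452% to 1.63% of the primed level. The primed markers gave the same measure for comparison: SFRP2 stood at 0.00353% to 0.0596%, DUSP6 at 0.00392% to 0.201%, SOX11 at 0.259% to 0.543%, ZIC2 at 0.507% to 2.17% and CD24 at 2.76% to 7.11%. Transcripts of its antisense neighbour CCND2-AS1 followed the same direction, from 0.863 CPM in Primed WT to 0.0213 CPM in PXGL WT.

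The D-type cyclin CCND3 measured 21.5, 19.7 and 19.4 CPM in primed cells and 107, 99.2 and 107 CPM in PXGL WT. It rose by 2.58 ± 0.0568 on the log2 scale in PXGL WT and by 1.99 ± 0.0564 in NaiveCult WT, where it averaged 72.2 ± 1.74 CPM. CCND1 fell less, from 233 ± 13.1 CPM in primed cells to 158 ± 0.712 CPM in PXGL WT (log2 fold change -0.35, adjusted p = 9.4e-05) and 119 ± 12.1 CPM in NaiveCult WT (-0.82, adjusted p = 1.9e-08). Summed per kilobase, the D-type cyclins amounted to 179 ± 2.04 CPM per kb in primed cells, 52.4 ± 1.02 in PXGL WT and 39.2 ± 2.33 in NaiveCult WT. CCND2 made up 70.7% ± 1.55 of that sum in primed cells and 1.96% ± 0.212 in PXGL WT, while CCND3 made up 1.95% ± 0.0860 and 34.7% ± 0.868. CCND1 provided 27.3% ± 1.54 in primed cells, 63.4% ± 1.08 in PXGL WT and 63.6% ± 2.77 in NaiveCult WT.

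**Figure D2:**
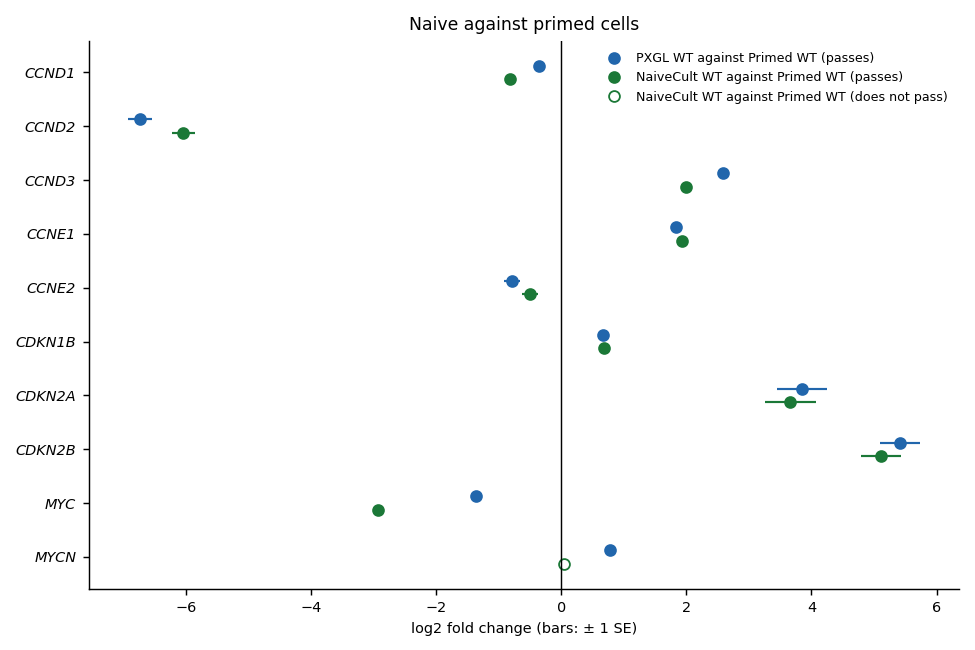
Log2 fold change of the 10 genes in PXGL WT (blue) and NaiveCult WT (green) against Primed WT, with bars of 1 SE, filled where the adjusted p is below 0.05. CCND2 lies beyond -6 in both, the INK4 genes lie between 3.66 and 5.42, and MYCN in NaiveCult WT is the open point near 0.

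The E-type cyclins moved in opposite directions. CCNE1 measured 38.3, 41.7 and 37.6 CPM in primed cells against 120, 123 and 122 CPM in PXGL WT and 139, 131 and 133 CPM in NaiveCult WT. Its log2 fold changes were 1.84 ± 0.0505 and 1.93 ± 0.0506. CCNE2 fell from 6.95 ± 0.255 CPM to 3.48 ± 0.372 CPM in PXGL WT (log2 fold change -0.79, adjusted p = 4.9e-05) and 4.44 ± 0.389 CPM in NaiveCult WT (-0.49, adjusted p = 0.0027). CCNE1 held 91.0% of the summed E-type level per kilobase in primed cells and 98.4% in PXGL WT.

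CDKN2A and CDKN2B were close to the limit of detection in primed cells and low but measurable in naive cells. CDKN2B had 3, 3 and 2 counts in the primed libraries (0.0588, 0.0592 and 0.0305 CPM) and averaged 1.87 ± 0.297 CPM in PXGL WT and 1.57 ± 0.0170 CPM in NaiveCult WT. From the summed counts of 313 and 8 it was 39.3-fold higher in PXGL WT, with a 95% counting interval of 19.7 to 91.8, and 32.9-fold higher in NaiveCult WT (16.4 to 77.2). CDKN2A had 8, 2 and 3 counts in the primed libraries and averaged 0.999 ± 0.213 CPM in PXGL WT and 0.918 ± 0.0141 CPM in NaiveCult WT. It was 13.2-fold higher in PXGL WT (7.52 to 25.3) and 11.8-fold higher in NaiveCult WT (6.65 to 22.9), and these intervals cover counting error only. Primed WT replicate 1 held 8 of the 13 primed counts, and without it the fitted log2 fold change went from 3.85 to 4.68 in PXGL WT and from 3.66 to 4.49 in NaiveCult WT. The antisense RNA CDKN2B-AS1 had no counts in primed cells and averaged 0.104 CPM in PXGL WT, whereas the neighbour MTAP was lower there, at 66.6 against 172 CPM. CDKN1B rose from 90.01 ± 9.47 CPM to 123 ± 2.07 CPM in PXGL WT (log2 fold change 0.66, adjusted p = 5.9e-07) and 130 ± 6.48 CPM in NaiveCult WT (0.69, adjusted p = 4.4e-07). Of the 4 other CDK inhibitors listed, 4 passed as higher in PXGL WT and 3 in NaiveCult WT. They included the INK4 gene CDKN2D (9.78 and 16.0 CPM against 2.74 CPM). Of all genes, 87.5% and 85.4% passed in these comparisons, in either direction. CDKN2C, another INK4 gene, averaged 0.940 CPM in PXGL WT and 0.0131 CPM in primed cells.

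MYC measured 173, 145 and 144 CPM in primed cells, 50.7, 53.6 and 52.4 CPM in PXGL WT and 19.2, 17.6 and 17.9 CPM in NaiveCult WT. The 3 groups did not overlap, and the log2 fold change against primed cells was -1.35 ± 0.0729 in PXGL WT and -2.93 ± 0.0795 in NaiveCult WT. MYCN was 213 ± 5.61 CPM in PXGL WT against 143 ± 7.13 CPM in primed cells (log2 fold change 0.78, adjusted p = 9.8e-10). In NaiveCult WT, at 133 ± 5.18 CPM, it did not pass, and its direction turned with the scaling (0.05 with TMM factors, -0.11 with library totals alone). Library totals shifted the median of all genes by -0.21 in PXGL WT and -0.15 in NaiveCult WT against primed cells. MYC made up 32.6% ± 2.75 of the summed MYC and MYCN level per kilobase in primed cells, 9.95% ± 0.320 in PXGL WT and 5.82% ± 0.254 in NaiveCult WT. PVT1, the noncoding gene next to MYC, also fell in PXGL WT, from 38.4 to 14.6 CPM.

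**Figure D3:**
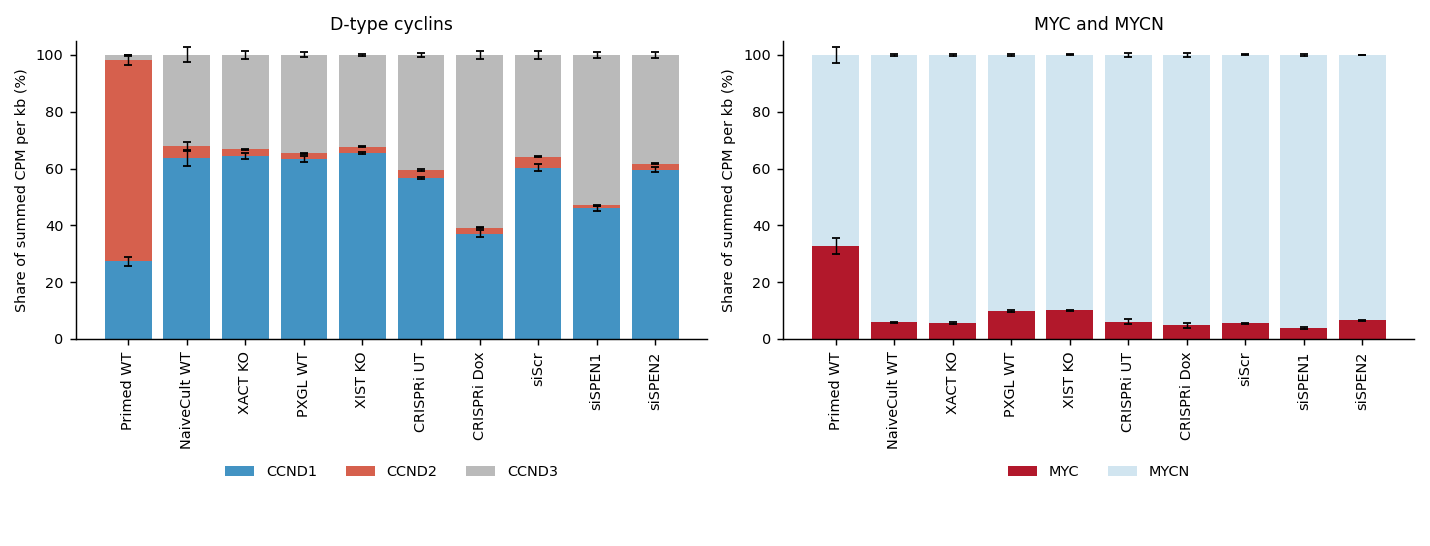
Share of each gene in the summed level per kilobase of exon of the D-type cyclins (left) and of MYC and MYCN (right), as stacked means over 3 libraries in each of the 10 groups, with bars of 1 SD at the top of each segment. CCND2 holds 70.7% in Primed WT and at most 4.41% in the naive groups, and the share of CCND1 goes from 56.8% in CRISPRi UT to 37.1% in CRISPRi Dox.

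The counts over the wider machinery were near the 87.5% of all genes that passed in PXGL WT. Of 25 listed genes of the retinoblastoma, E2F and CDK machinery, 11 were higher and 11 lower in PXGL WT. Their largest changes were in the germline and embryonic cyclin CCNA1 (43.3 against 2.20 CPM, log2 fold change 4.49), in the tumour suppressor RB1 (4.28 against 26.4 CPM, -2.41) and in the repressor E2F5 (13.4 against 65.0 CPM, -2.07). Of 22 E2F target genes 15 were higher and 6 lower, led by UHRF1 (1.90) and the replication licensing factor CDT1 (1.74). Of 20 MYC target genes tested 12 were higher and 6 lower, led by the spermidine synthase SRM (2.19), while LDHA fell (-1.19). The median log2 fold change was 0.31 for the E2F targets, 0.29 for the MYC targets and -0.03 for all genes. Within the MYC and MAX network 8 of 11 genes were higher, with MLXIP at 225 against 31.5 CPM and the MYC antagonist MNT at 60.5 against 10.5 CPM, and MXI1 was lower (4.89 against 64.8 CPM). Of 12 mitotic genes 6 were higher, PLK1 by 2.20, and 5 were lower, CENPF by -1.84. In NaiveCult WT, 14 of the 25 machinery genes, 14 of the 22 E2F targets, 15 of the 20 MYC targets, 5 of the 11 network genes and 4 of the 12 mitotic genes were higher, and 8, 6, 3, 4 and 6 were lower, where 85.4% of all genes passed.

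The naive media were then compared with each other. MYC was higher in PXGL WT than in NaiveCult WT by 1.57 ± 0.0781 on the log2 scale (adjusted p = 5.6e-10), and MYCN, CCND3 and CCND1 were higher by 0.73, 0.59 and 0.46. CCND2 was lower (-0.69 ± 0.180, adjusted p = 0.0035), by -0.37 without NaiveCult WT replicate 2 (adjusted p = 0.0055), the library with the most CCND2. In all, 5 of 10 members passed, 4 higher and 1 lower, where 70.6% of genes did. CCNE2 was at 3.48 against 4.44 CPM and did not pass (-0.30, adjusted p = 0.056), but did with library totals (0.028), RLE factors (0.048) and DESeq2 (0.038). Neither INK4 gene passed (0.19 ± 0.289, adjusted p = 0.58 for CDKN2A and 0.30 ± 0.198, adjusted p = 0.19 for CDKN2B). The ranges of CDKN2B did not overlap. Of the 20 MYC target genes 14 were lower and 3 higher in PXGL WT, the medium with more MYC, with a median of -0.39. Of the 8 fibroblast markers 7 were lower and 1 higher in PXGL WT, and of the 7 trophoblast markers 6 were lower, and their part in these differences was not tested. The media differ in library series as well, and the 2 cannot be told apart.

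Loss of XIST was produced in 2 ways, and the first was CRISPR interference. In CRISPRi Dox against CRISPRi UT, CCND1, CCND2, MYC and MYCN fell and CDKN2A rose. In all 7 of 10 members passed, 1 higher and 6 lower, where 39.6% of the 17286 genes tested passed, 20.7% higher and 18.9% lower. The median log2 fold change of the members was -0.29 against 0.00 over all genes. The members were chosen with earlier results of these data known, so the counts and the median are a description only. The call beyond 2-fold applied to CCND1 and CDKN2A, against 3.81% of all genes.

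CCND1 measured 118, 122 and 124 CPM in CRISPRi UT and 51.7, 53.8 and 56.5 CPM in CRISPRi Dox. The groups lay far apart, and the log2 fold change was -1.18 ± 0.0399 (adjusted p = 1.2e-14). CCND2 measured 10.3, 8.75 and 11.1 CPM without doxycycline and 4.99, 5.56 and 4.89 CPM with it, a log2 fold change of -0.98 ± 0.103 (adjusted p = 2.5e-07). CCND3 was at 104.6 ± 2.91 and 107 ± 4.44 CPM and did not pass. The summed D-type level per kilobase went from 44.9 ± 1.12 to 30.6 ± 0.980, and CCND3 became its largest share, 60.8% ± 1.31 against 40.5% ± 0.652. The E-type cyclin CCNE1 measured 115 ± 2.88 and 116 ± 4.99 CPM. CCNE2 passed narrowly at 2.75 ± 0.503 against 3.80 ± 0.582 CPM (-0.48, adjusted p = 0.032), and not without CRISPRi Dox replicate 2 (adjusted p = 0.12), CRISPRi UT replicate 1 (0.15) or CRISPRi UT replicate 2 (0.083).

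MYC measured 32.0, 28.2 and 25.5 CPM in CRISPRi UT and 12.99, 17.0 and 20.0 CPM in CRISPRi Dox (log2 fold change -0.80 ± 0.102, adjusted p = 3.3e-06). MYCN fell from 199 ± 5.18 to 150 ± 7.14 CPM (-0.42 ± 0.0389, adjusted p = 4.7e-08). CDKN2A measured 1.95, 1.75 and 1.29 CPM without and 6.91, 5.04 and 3.55 CPM with doxycycline, a rise of 1.62 ± 0.222 on the log2 scale (adjusted p = 7.8e-06). CDKN2B, next to CDKN2A, was 2.65 ± 0.326 against 1.95 ± 0.537 CPM and did not pass (0.42, adjusted p = 0.074, and 0.034 without CRISPRi UT replicate 2). CDKN1B fell slightly, from 127 ± 2.90 to 115 ± 3.41 CPM (-0.15, adjusted p = 0.0017).

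Among the listed pathway genes, 13 of 20 MYC targets fell and 1 rose, with a median of -0.14 against 0.00 over all genes, of which 20.7% rose and 18.9% fell. Of the 22 E2F targets 6 fell and 1 rose, of the 25 machinery genes 9 fell and 3 rose, of the 12 mitotic genes 5 fell and 2 rose, and of the 11 network genes 4 fell and 2 rose. CCNA1 was the machinery gene with a change beyond 2-fold, at 12.9 against 33.2 CPM (-1.38). CDKN2C fell too, from 1.18 to 0.579 CPM (-1.05, adjusted p = 0.0024). Markers of other states moved with the treatment: of 10 naive markers 3 fell, with KLF17 at 56.1 against 131 CPM, and 2 rose. Of 7 trophoblast markers 3 rose and 1 fell, with HAND1 at 8.32 against 2.42 CPM, and their sum went from between 19.5 and 20.2 CPM to between 26.6 and 32.8 CPM. Of 7 hypoblast and mesendoderm markers 3 fell (MIXL1 at 11.8 against 35.9 CPM, GATA6 and TBXT) and 2 rose, and their sum went from between 57.2 and 62.7 CPM to between 44.1 and 47.2 CPM. Of 3 neural markers tested 2 fell, and of 2 fibroblast markers tested 1 fell, from sums of at most 1.11 and 6.35 CPM. Their part in the changes of the cell cycle genes was not tested, and doxycycline, repressor induction and XIST loss cannot be told apart in this contrast.

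The second way was deletion. In XIST KO against PXGL WT, 2 of 10 members passed, where 12.9% of genes did. CCND1 rose from 158 ± 0.712 to 181 ± 5.66 CPM (log2 fold change 0.20 ± 0.0380, adjusted p = 0.0013), and CDKN1B fell from 123 ± 2.07 to 110 ± 2.60 CPM (-0.16 ± 0.0350, adjusted p = 0.0029). CCND2 was 9.76 ± 0.656 against 8.20 ± 1.03 CPM and MYCN 198.5 to 201.7 CPM against 209.2 to 219.2 CPM. Neither passed (adjusted p = 0.12 and 0.14), but both did when only these 6 libraries entered the fit (0.026 and 0.012). In that fit 4376 of 16877 genes passed, against 2235 of 17286 in the main fit, and its XIST KO libraries are technical replicates. MYC was at 49.97 ± 0.697 against 52.2 ± 1.45 CPM, and CDKN2A at 1.36 ± 0.370 against 0.999 ± 0.213 CPM. Of the 20 MYC targets and of the 22 E2F targets 1 each passed, lower. Among the 25 machinery genes 3 rose, among the 12 mitotic genes 2 rose, and in the MYC and MAX network 2 rose and 1 fell. Of the 7 trophoblast markers 3 fell, with CGA at 0.231 against 2.46 CPM, and their sum was 20.8 to 22.6 CPM against 29.2 to 31.8 CPM in PXGL WT. The part of this in the changes of CCND1 and CDKN1B was not tested. XIST KO came from 1 clone, so clone and deletion cannot be told apart.

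The arms share no libraries, so the difference between them could be tested in the same fit. The change in XIST KO minus that in CRISPRi Dox was 1.38 ± 0.0551 for CCND1 (adjusted p = 8e-13), 1.22 ± 0.143 for CCND2 (4.5e-06), 0.73 ± 0.138 for MYC (0.00073), 0.33 ± 0.0548 for MYCN (0.00024) and -1.19 ± 0.349 for CDKN2A (0.019). These 5 of 10 members passed, where 21.8% of genes did. The difference for CDKN2A did not pass without PXGL WT replicate 1 (adjusted p = 0.079) or XIST KO replicate 3 (0.058). For CDKN1B the difference was -0.01 ± 0.0494, which did not pass. Of the 20 MYC targets, 8 passed with a positive difference and 1 with a negative one.

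**Figure D4:**
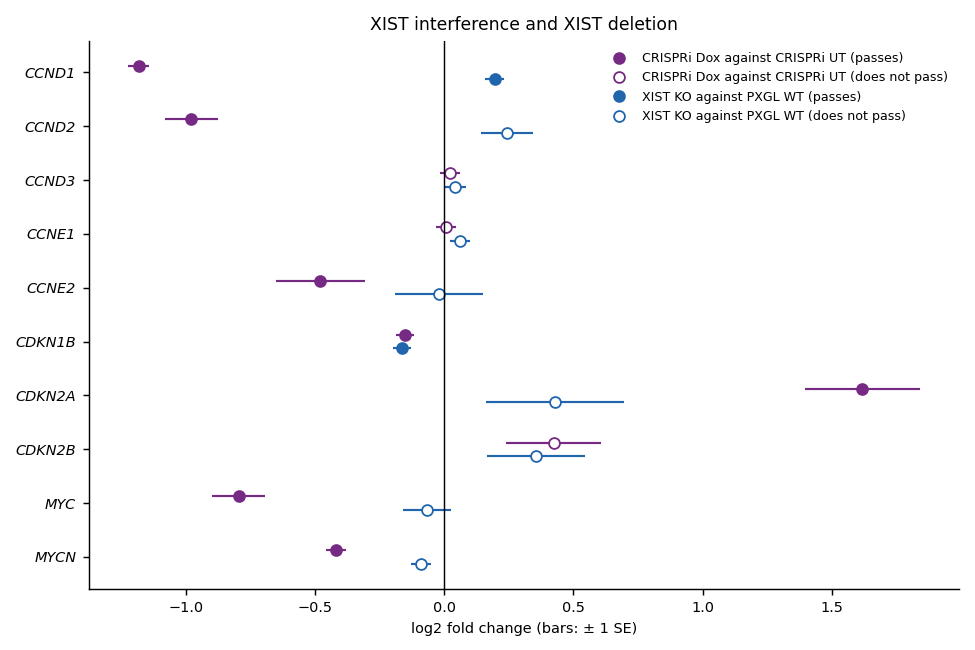
Log2 fold change of the 10 genes in CRISPRi Dox against CRISPRi UT (purple) and in XIST KO against PXGL WT (blue), with bars of 1 SE, filled where the adjusted p is below 0.05. CCND1, CCND2, MYC and MYCN are filled and left of 0 in the CRISPRi arm, CDKN2A lies at 1.62 there, and CDKN1B lies near -0.15 in both.

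Depletion of SPEN, which the paper reports as involved in XIST-mediated dampening, was followed by lower CCND2, CCND1, CDKN2A and CDKN2B with either siRNA mix. Compared directly, the mixes differed in every member but CCNE1, those lowered by both included, where 34.7% of all genes passed. In siSPEN1 against siScr 9 of 10 members passed, 4 higher and 5 lower, where 43.7% of the 16448 genes tested did. In siSPEN2 against siScr 7 passed, 1 higher and 6 lower, where 41.2% of genes did. The comparisons share the siScr libraries. Beyond 2-fold, 3 members were lower with siSPEN1 and 1 with siSPEN2, against 5.08% and 4.24% of genes beyond 2-fold in either direction.

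CCND2 measured 15.3, 16.4 and 17.8 CPM in siScr, 4.85, 3.94 and 4.93 CPM in siSPEN1 and 8.15, 7.79 and 8.61 CPM in siSPEN2. No ranges overlapped, and it fell by 1.83 ± 0.101 on the log2 scale with siSPEN1 (adjusted p = 9.3e-12) and by 1.02 ± 0.0930 with siSPEN2 (adjusted p = 2e-08). The siScr level was itself the highest of the naive groups, and PXGL WT, of another library series, averaged 8.20 CPM. The sum of the 6 primed markers went from between 134.5 and 137.3 CPM to between 52.7 and 56.7 CPM in siSPEN1 and 63.9 and 64.4 CPM in siSPEN2. Nearly all of it was CD24, at 132, 51.2 and 59.0 CPM, which was the 1 of 3 primed markers tested that passed with siSPEN1. With siSPEN2 CD24 was lower and 1 other passed as higher, with ZIC2 at 3.99 against 2.69 CPM and SOX11 at 0.949 against 0.769 CPM. The part of this in the fall of CCND2 was not tested. CCND3 rose with siSPEN1, from 111 ± 5.74 to 172 ± 8.001 CPM (0.64 ± 0.0514, adjusted p = 2.1e-09), and was at 106 ± 2.99 CPM with siSPEN2. CCND1 fell from 154 ± 6.29 to 123 ± 3.62 CPM (-0.32) and to 137 ± 1.81 CPM (-0.19, adjusted p = 0.0031). Per kilobase, CCND3 thus held 53.0% ± 0.977 of the D-type level in siSPEN1, against 35.8% ± 1.37 in siScr and 38.3% ± 1.01 in siSPEN2.

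CDKN2A measured 4.12, 5.13 and 4.22 CPM in siScr, 1.37, 1.35 and 1.69 CPM in siSPEN1 and 2.20, 2.81 and 1.99 CPM in siSPEN2. The log2 fold changes were -1.59 ± 0.175 (adjusted p = 2.3e-07) and -0.95 ± 0.161 (adjusted p = 6.7e-05). CDKN2B measured 3.95, 3.81 and 4.05 CPM in siScr, 1.48, 1.19 and 1.69 CPM in siSPEN1 and 2.29, 1.84 and 2.14 CPM in siSPEN2, with changes of -1.41 ± 0.171 and -0.93 ± 0.160. Both genes thus lay below every siScr library in all 6 depleted ones. CDKN1B rose with siSPEN1, from 121 ± 1.00 to 138 ± 2.10 CPM (0.20, adjusted p = 0.0011), and was 115 ± 4.07 CPM with siSPEN2. Both INK4 levels are a few CPM. The siScr group was the highest of all for CDKN2B, and only CRISPRi Dox was higher for CDKN2A. PXGL WT, of another library series, averaged 0.999 CPM for CDKN2A and 1.87 CPM for CDKN2B.

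The mixes were compared directly as well. CCNE2 measured 5.46, 4.84 and 4.95 CPM in siSPEN1 and 1.68, 2.38 and 1.83 CPM in siSPEN2, on either side of the 3.12 to 3.34 CPM in siScr, and the difference of siSPEN2 minus siSPEN1 was -1.38 ± 0.151 (adjusted p = 3.3e-07). CCND3 (-0.71), MYCN (-0.41) and CDKN1B (-0.29) were also lower with siSPEN2, and CCND2 (0.81), CDKN2A (0.64) and MYC (0.44) were higher. In all 9 of 10 members passed, where 34.7% of genes did, CCND1 (0.13, adjusted p = 0.04) and CDKN2B (0.48, adjusted p = 0.043) narrowly. MYC measured 28.6 ± 0.742 CPM in siScr, 22.3 ± 2.49 in siSPEN1 (-0.35, adjusted p = 0.00027) and 30.8 ± 0.368 in siSPEN2, which did not pass. MYCN rose with siSPEN1, from 222 ± 6.99 to 261 ± 8.11 CPM (0.25), and fell with siSPEN2 to 199 ± 2.51 CPM (-0.17, adjusted p = 0.005). CCNE1 rose with siSPEN2, from 107 ± 5.34 to 123 ± 2.401 CPM (0.19, adjusted p = 0.0049), and was 115 ± 6.43 CPM with siSPEN1 (0.12, adjusted p = 0.064). SPEN itself was at 163 and 157 CPM, and the difference between the mixes did not pass (-0.07 ± 0.0759, adjusted p = 0.52).

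**Figure D5:**
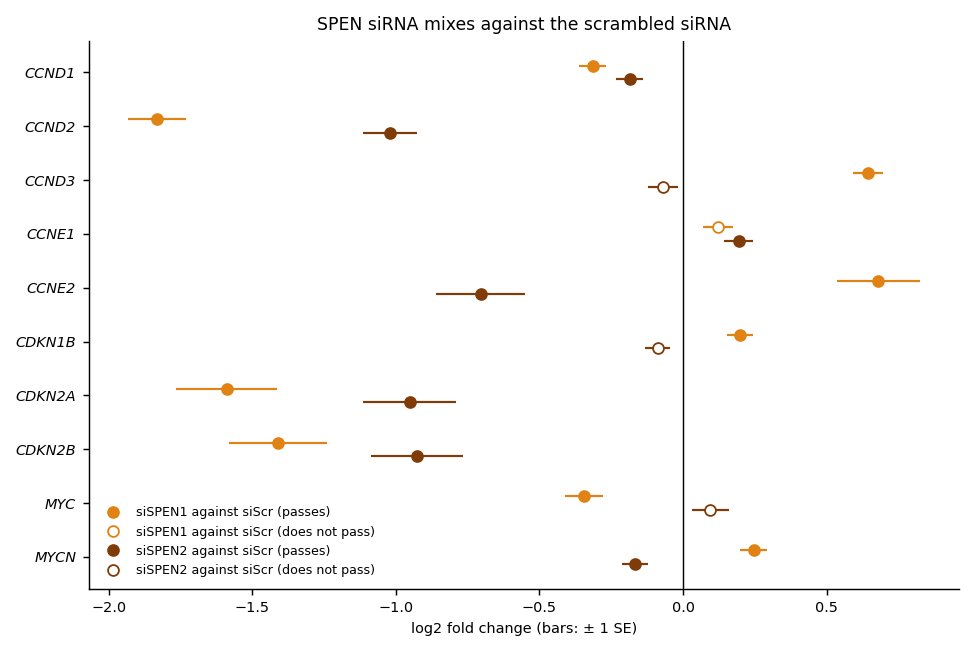
Log2 fold change of the 10 genes in siSPEN1 (orange) and siSPEN2 (brown) against siScr, with bars of 1 SE, filled where the adjusted p is below 0.05. CCND2, CDKN2A and CDKN2B lie left of 0 with both mixes, and CCNE2, CCND3, CDKN1B and MYCN lie apart.

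Of all genes 43.7% passed with siSPEN1 and 41.2% with siSPEN2, against which the pathway counts are to be read. With siSPEN1, 13 of 22 E2F targets rose and 3 fell (median 0.16), and with siSPEN2 9 rose and 3 fell (median 0.11). Of the 20 MYC targets 7 rose with siSPEN1, and 6 rose and 1 fell with siSPEN2. Of the 25 machinery genes 7 rose and 6 fell with siSPEN1, and 3 rose and 7 fell with siSPEN2. Of the mitotic genes 2 of 12 rose and 2 fell with siSPEN1, whereas 1 rose and 6 fell with siSPEN2. In the MYC and MAX network 1 of 11 rose and 4 fell with siSPEN1, and 2 rose and 3 fell with siSPEN2. Among markers of other cell types HAND1 fell with siSPEN1 (2.402 against 5.72 CPM) and CGA rose with both mixes (5.14 and 9.67 against 2.08 CPM). GATA6 fell with siSPEN2 (11.3 against 25.8 CPM). The naive markers summed to between 3725 and 3928 CPM in siSPEN1 against 3360 to 3419 CPM in siScr, with 7 of 10 higher and 1 lower.

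Deletion of XACT left these genes with 1 change past the test. CCND2 was 7.70, 7.24 and 6.25 CPM in XACT KO and 9.78, 19.2 and 12.5 CPM in NaiveCult WT (log2 fold change -0.96 ± 0.194, adjusted p = 0.044), where 0.425% of the 16472 genes tested passed. The call was lost without XACT KO replicate 1 (adjusted p = 0.15), XACT KO replicate 3 (0.17) or NaiveCult WT replicate 2 (0.11), the library with the highest CCND2. In these refits 0, 0 and 5 of all genes passed, against 70 in the main fit, so the loss was not particular to CCND2. The background itself moved with the setting, to 551 genes with a replicate block and 672 by DESeq2. The summed fibroblast markers were at 16.4, 19.2 and 28.6 CPM in NaiveCult WT and 5.14, 15.1 and 6.30 CPM in XACT KO, although 0 of the 6 tested passed in edgeR (5 at an unadjusted p below 0.05, and 1 by DESeq2). Of the 7 trophoblast markers 1 passed, KRT7, higher at 44.4 against 24.5 CPM. The part of either in the CCND2 difference was not tested. The sum of the primed markers was 104.6, 143 and 127 CPM in NaiveCult WT and 147, 121 and 126 CPM in XACT KO. CCNE1 measured 150, 145 and 175 CPM in XACT KO against 134 ± 4.13 CPM in NaiveCult WT and did not pass (0.23, adjusted p = 0.12). MYC (19.3 ± 2.98 against 18.2 ± 0.875 CPM), CCND1 (121 ± 3.39 against 119 ± 12.1 CPM) and CDKN2A (0.863 ± 0.0509 against 0.918 ± 0.0141 CPM) had overlapping ranges.

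The genes whose 10 group means of log2(CPM + 1) correlated best with each of the 4 widest-ranging members were sought among 14725 genes with a mean of at least 1 CPM. For CCND2 they were EPHA1 (Pearson r = 0.988), SUV39H2 (0.986) and ABHD8 (0.984). For CDKN2B they were PRDM4 (0.985), CRISPLD2 (0.967) and SH3RF1 (0.960), and for CDKN2A NDFIP1 (0.944), OLIG3 (0.936) and CCP110 (0.932). For MYC they were PCDH7 (0.965), PNMA6A (0.958) and TSC22D1-AS1 (0.951). These r values describe 10 means from 3 library series, in which the primed group is far from the naive ones for all 4 members.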

How the data were processed

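The authors deposited 1 table of raw counts per library, giving whole reads per gene with no normalization. Per their methods, reads of stranded, ribosome-depleted total RNA were trimmed with trim_galore and mapped with Bowtie 2 to hg38 and mm10. Duplicates were removed with Picard and alignments of low mapping quality with SAMtools, feeder reads were taken out with XenofilteR, and reads over exons were counted in reverse-stranded mode by htseq-count. Reads of overlapping genes on 1 strand or of near-identical copies may be lost in such counting, and the MYC target EIF4A1 is listed at 0 in every library. Counting by gene does not separate the transcripts of CDKN2A.

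Counts were tested with edgeR 4.0.16 (TMM factors, filterByExpr with a minimum count of 10, quasi-likelihood F-test), and p-values were adjusted by Benjamini-Hochberg over all genes tested. A gene passed at an adjusted p below 0.05 and was called beyond 2-fold where the log2 fold change also exceeded 1 in size. There were 4 fits: the XIST groups with PXGL WT (17286 genes), the siRNA groups (16448), NaiveCult WT with XACT KO (16472), and the 3 wild-type states (18663). The edgeR and DESeq2 1.42.0 steps were tested on simulated counts. Values with ± are a mean and SD of 3 libraries in CPM, or an estimate and SE on the log2 scale. Lengths are GENCODE 44 union exons and coordinates are hg38, counted from 1. The authors counted on another annotation release, so levels per kilobase depend on lengths that may differ from those of the counted exons. Replicates are separate samples by label. The p-values use a spread between replicates estimated over all groups of a fit, and within XIST KO that spread is between technical replicates.

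Named were all 10 members in every comparison, up to 3 genes per list and comparison with the largest called rise and fall, the targeted genes, and the best-correlated genes of the 4 widest-ranging members. The members and lists were chosen with earlier results of these data known. Same-numbered libraries were checked for pairing by correlating deviations from group means. Only siSPEN1 and siSPEN2 had all r above 0.1 (0.222, 0.123 and 0.124), from the data and not from the labels.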

Additional observations from a re-analysis of the deposited data

Results flagged for a closer look

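The change in XIST KO differed from that in CRISPRi Dox, by the interaction term of the edgeR fit, for 5 members. The difference (XIST KO minus CRISPRi Dox, log2) was 1.38 for CCND1, 1.22 for CCND2, 0.73 for MYC, 0.33 for MYCN and -1.19 for CDKN2A. The XIST KO libraries are technical replicates of a single clone, so clone and deletion cannot be told apart. The CRISPRi cells carry the repressor and received doxycycline in the Dox group. The untreated arms themselves differed in MYC (52.2 CPM in PXGL WT, 28.6 CPM in CRISPRi UT) and CCND1 (158 and 121 CPM). The part of these in the differences was not tested.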

How the results depend on the processing

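Leaving aside single libraries, 685 values were recomputed under other settings, and 668 kept their direction and side of the threshold. With only the 6 libraries compared, 4 members passed in XIST KO in place of 2. All genes passing rose there too, from 2235 of 17286 to 4376 of 16877. With library totals 0 members passed in XACT KO (edgeR, CCND2 at an adjusted p of 0.053, and 4 members at an unadjusted p below 0.05 with TMM factors), where 51 genes did against 70 with TMM factors. MYCN in NaiveCult WT against Primed WT turned to -0.11 with library totals, a setting chosen after seeing the data. Leaving out 1 library at a time, the members passing ranged from 0 to 1 in XACT KO, and all genes passing from 0 to 447. Values that did not pass turned sign within -0.19 to 0.14 for CCNE2 in XIST KO, -0.003 to 0.061 for CCND3 and -0.02 to 0.047 for CCNE1 in CRISPRi Dox, -0.03 to 0.105 for CCND1 and -0.036 to 0.157 for MYC in XACT KO, and -0.053 to 0.023 for CDKN1B in PXGL WT against NaiveCult WT. The difference between the XIST arms did so for CCND3 (-0.013 to 0.051), CDKN1B (-0.037 to 0.008) and CDKN2B (-0.23 to 0.13). The causes were not tested. In siSPEN2 against siSPEN1, CCND1 missed the threshold with RLE factors (0.054), no filter (0.06) or only 6 libraries (0.058), CDKN2B with no filter (0.057), DESeq2 (0.054) or only 6 libraries (0.085), and CDKN2A without siSPEN2 replicate 2 (0.078). CCNE1 in siSPEN1 passed with RLE factors and DESeq2 (0.048). Shares within families are per kilobase and differ by CPM (MYC 51.8% in Primed WT). With a replicate block every comparison kept its count of members passing, such as 7 in CRISPRi Dox and 9 in siSPEN1, and no member's call changed. By their labels the samples of compared groups share only a number, siSPEN1 and siSPEN2 included. CRISPRi UT and CRISPRi Dox may share clones, which the labels do not give, and no block by clone was fitted. With 2 to 8 counts a library, depth limits the INK4 values in Primed WT.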
